A study of Mus musculus with 12 samples.

Results

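The comparison described here is the depletion of the splicing factor Puf60 in a mouse neuroblastoma line that carries an uninduced Puf60 transgene with exon 5, called pEx5. Its members are the 4 libraries, of 12 in the series, that carry the pEx5 name and received no doxycycline: replicates A and B after an siRNA against Puf60, and replicates A and B after a non-targeting siRNA. Both siRNAs were used at 15 nM and RNA was taken 48 h later. The parent cell, Neuro-2A (N2A), is a neuroblastoma line with Flp-In and rtTA3 elements, selected with hygromycin after integration of an siRNA-resistant, N-terminally 3xFlag-tagged Puf60 cDNA under doxycycline control. The other 8 libraries are the pEx5 line with doxycycline and a second line, mEx5, whose cDNA lacks exon 5. All 4 pEx5 libraries described here carry the transgene, so neither group is an unmodified N2A culture. The replicates are called biological duplicates, with nothing to say whether they came from separate cultures. P-values therefore measure only the spread between replicate libraries, which was estimated over all 12 libraries of the series.

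Puf60 binds RNA and is a relative of U2AF65, the large subunit of the U2 auxiliary factor. Both bind the pyrimidine-rich tract before the AG of a 3′ splice site and help the U2 small nuclear ribonucleoprotein to reach the branch point. An exon whose 3′ splice site is poorly recognised can be skipped, and an intron can be kept or another AG used in its place. Microexons, very short exons that are frequent in neuronal genes, have little room for other binding sites and depend strongly on the flanking intron. The readouts were the percent spliced in (PSI) and the messenger RNA level of each gene. PSI is the percentage of transcripts that hold an exon or an intron, or that use a given alternative splice site.

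The 4 libraries held between 35965445 and 41494994 exon-exon junction reads. Log2 levels per gene correlated at 0.998 within each pair of replicates and at 0.988 to 0.989 across the groups. The neuronal identity of the line was seen in both groups: 13 of 16 neuronal and neuroblastoma markers were at 1 RPKM or more in each, and their summed level was 1389 RPKM after knockdown against 1575 RPKM in control. Nefl, Nefm and Th, which are neurofilament and catecholamine genes, were under 1 RPKM in both groups. The summed markers of astrocytes were 3.01 RPKM after knockdown against 1.32 RPKM in control, and those of oligodendrocytes, microglia, fibroblasts, epithelium and endothelium each summed to under 5 RPKM in either group. Fewer cells of a kind and less RNA per cell cannot be told apart in such bulk libraries.

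Puf60 itself was measured first. Its junction reads stood at 58.3 and 64.4 CPM, the junction reads of a gene scaled to library depth, in the knockdown libraries, against 321.2 and 295.7 CPM in the control libraries. Both knockdown libraries were far below both controls, and the log2 fold change was -2.33 ± 0.059 (SE; adjusted p = 1.18e-15, limma over all genes, Benjamini-Hochberg). The authors' deposited table gives 22.05 RPKM after knockdown against 107.44 RPKM in control, with a log2 fold change of -2.35. Reads of the endogenous gene and of any uninduced transgene cannot be told apart here. The Puf60 transcript left after knockdown also held exon 5 less often. This 51-nt exon had a PSI of 23.2 and 19.8 in knockdown libraries, from 443 and 460 reads, against 39.1 and 35.8 in control libraries, from 2729 and 2205 reads. The groups did not overlap, and inclusion fell by 15.9 points (adjusted p = 0.000461, limma).

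Splicing moved mostly toward exon skipping. Of 22431 events tested, 3649 changed, which is the background share of 16.3%. An event counted as changed when its adjusted p was under 0.05 (limma on read-weighted logit PSI) and its PSI differed by 10 points or more. PSI rose in 987 events (4.4%) and fell in 2662 (11.9%). The changed events lay in 2252 of 6930 genes with a tested event (32.5%). In 3629 of the changed events both knockdown libraries lay on one side of both controls, and in 20 the groups overlapped. The groups also did not overlap in 78.0% of all tested microexons and 72.2% of all tested exons over 27 nt. For introns, alternative 3′ sites and alternative 5′ sites this share was 53.1%, 49.97% and 44.8%. A lack of overlap in the events named below therefore adds little beyond their call. With events at nearly constant PSI kept in the test, 2005 of 222055 events changed, 465 higher and 1540 lower. Without control library A, 652 events were higher and 2125 lower.

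The kinds of event moved in different directions. Among 287 tested microexons, of 27 nt or less, 40.4% changed: inclusion fell in 112 (39.0%) and rose in 4 (1.39%). Among 8492 longer exons 29.8% changed: inclusion fell in 2226 (26.2%) and rose in 302 (3.56%). Counted over all control levels, introns moved the other way. With 7.28% changed, retention was higher in 445 of 8237 (5.4%) and lower in 155 (1.88%). This direction varied with the control PSI. Of 6584 introns at a control PSI of 0 to 20, 325 rose and 20 fell. There the 10-point threshold limits what an intron can lose. At 20 to 40, 81 rose and 59 fell. The direction was reversed at higher levels: at 40 to 60, 25 rose and 36 fell. The counts were 10 and 23 at 60 to 80, and 4 and 17 at 80 to 100. Alternative 3′ splice sites moved both ways in 9.9% of cases, the use of the site rising in 169 of 3090 (5.47%) and falling in 137 (4.43%). Alternative 5′ splice sites changed least often, in 99 of 2325 (4.26%), 67 higher (2.88%) and 32 lower (1.38%). The median difference over all tested events was -9.07 points for microexons, -5.39 points for longer exons, 0.99 points for introns, 0.13 points for 3′ sites and 0.80 points for 5′ sites. Only events with a mean PSI of 5 to 95 over the 4 libraries were tested. An exon near full inclusion in control was thus tested only if it fell, and an intron near no retention only if it rose. The shares and medians depend in part on this filter.

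**Figure D1:**
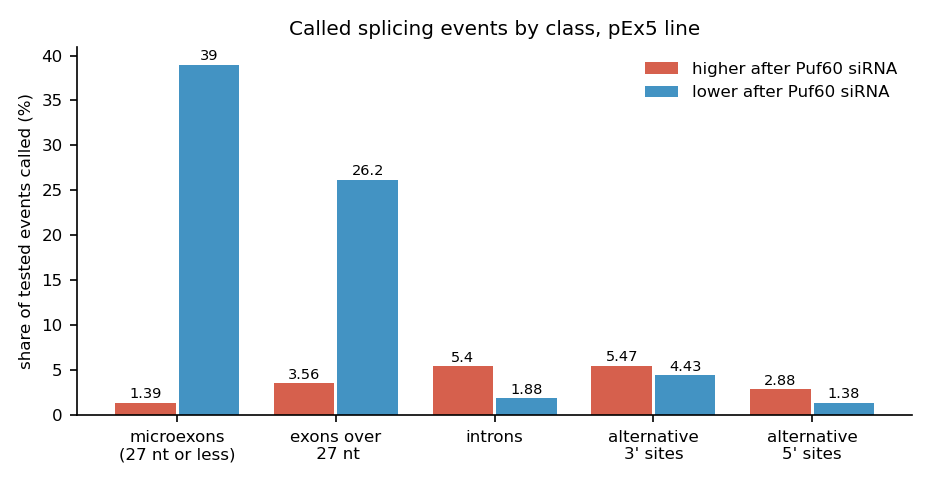
Percentage of tested events whose PSI rose or fell in pEx5 knockdown libraries relative to control, for each kind of event. Bars show the share past an adjusted p of 0.05 and 10 points. Changed microexons and longer exons were mostly lower (39.0% and 26.2%). Changed introns were more often higher (5.4%) than lower (1.88%), which held only below a control PSI of 40.

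The microexon with the largest fall was in Nbea, which encodes neurobeachin, a scaffold of membrane traffic in neurons. Its 9-nt exon had a PSI of 14.8 and 18.3 in knockdown libraries, against 88.7 and 88.3 in control libraries. The exact 95% intervals, which cover counting error only, ran from 10.8 to 19.7 and from 13.4 to 23.7 in knockdown and from 84.7 to 92.3 and from 83.5 to 92.2 in control. Most control transcripts held the exon and most knockdown transcripts lacked it (difference -72.0 points, adjusted p = 6.77e-08, limma). A 27-nt exon of Ncor1, a corepressor of nuclear receptors, had a PSI of 10.8 and 9.97 after knockdown, against 58.7 and 60.6 in control (-49.3 points, adjusted p = 4.46e-08, limma). A 21-nt exon of Mef2d, a transcription factor of muscle and neurons, had a PSI of 66.1 and 68.3 after knockdown, against 97.3 and 90.7 in control (-26.9 points). The 24-nt exon of Synj1, the synaptic phosphoinositide phosphatase synaptojanin, stood at 43.6 and 43.1 after knockdown, against 67.9 and 74.9 in control (-28.0 points). In all 3 genes both knockdown libraries were below both controls.

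The exons of these 4 genes are printed to show how little sequence the microexons hold and that each length is a multiple of 3. Coordinates are GRCm38 from a match to GENCODE transcripts, on the minus strand except for Mef2d: Nbea at chr3:55994048-55994056, Ncor1 at chr11:62403436-62403462, Mef2d at chr3:88161781-88161801 and Synj1 at chr16:90971564-90971587. All lie in coding sequence. Capitals mark the microexon and lower case 20 nt of each neighbouring exon:
Nbea: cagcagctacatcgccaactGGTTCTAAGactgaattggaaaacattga
Ncor1: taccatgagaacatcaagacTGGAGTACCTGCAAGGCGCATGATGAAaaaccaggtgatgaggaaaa
Mef2d: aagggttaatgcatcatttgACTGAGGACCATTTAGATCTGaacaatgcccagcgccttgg
Synj1: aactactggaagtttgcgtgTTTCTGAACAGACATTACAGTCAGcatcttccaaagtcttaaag

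Among other microexons with large falls, those of Rundc1, Nrxn2 and Cdon had no unique match in the annotation. A 6-nt exon of Rundc1 had a PSI of 24.8 and 24.5 after knockdown, against 95.03 and 94.96 in control (-70.4 points, adjusted p = 3.01e-06, limma). A 27-nt exon of Nrxn2, a presynaptic adhesion protein of the neurexin family, had a PSI of 21.5 and 16.3 after knockdown, against 90.5 and 71.1 in control (-61.9 points). A 14-nt exon of Cdon, a cell-surface coreceptor of Hedgehog ligands, had a PSI of 15.0 and 32.4 after knockdown, against 79.9 and 83.3 in control (-57.9 points). Each of these was low in both knockdown libraries, with the replicates of Nrxn2 and Cdon less close together than those of Rundc1. The 24-nt exons of the clathrin adaptor Picalm and the membrane-bending protein Bin1, both endocytic, were lower as well: Picalm had a PSI of 23.9 and 23.0 after knockdown, against 41.2 and 45.1 in control. Bin1 had a PSI of 44.6 and 50.9 after knockdown, against 70.7 and 76.3 in control. A 15-nt exon of Bbs9, a subunit of the BBSome that carries cargo into cilia, had a PSI of 71.3 and 64.4 after knockdown, against 96.9 and 97.4 in control.

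Among the 112 microexons that fell, 29 did so by more than 30 points and the median fall was -20.3 points. Their length was a multiple of 3 in 91.07%, against 81.29% of the microexons that were not called. Few microexons rose, and the calls of 3 of them were weak. A 21-nt exon of Camta2 had a PSI of 97.6 and 98.4 after knockdown, against 77.5 and 88.6 in control, and a 26-nt exon of Ccdc66 had 42.3 and 38.4 against 23.9 and 31.0. A 5-nt exon of Eef1b2, a translation elongation factor subunit, was at 0 and 41.2 after knockdown, against 0 in both controls, so that 1 library decided the call. Camta2 lost its call without any 1 of control library A (adjusted p = 0.169), knockdown library A (0.181) or knockdown library B (0.13), and Ccdc66 without control library A (0.183) or knockdown library A (0.107), all by limma. Eef1b2 lost it without either control library. The count of higher microexons, 4, became 1 without control library A and 2 without knockdown library B.

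**Figure D2:**
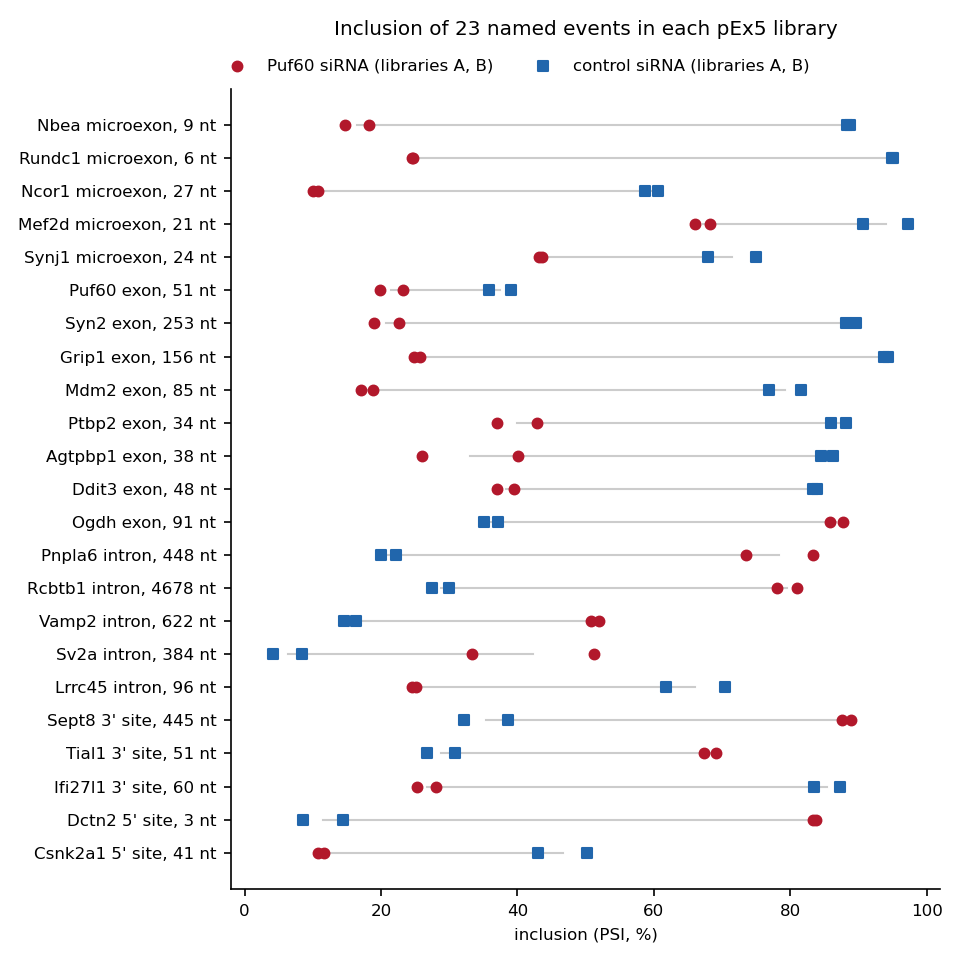
PSI (horizontal axis, %) in each of the 4 pEx5 libraries for 23 named events, one per line; circles are knockdown libraries, squares control libraries, and a grey line joins the group means. In Nbea the knockdown points sit at 14.8 and 18.3 and the control points at 88.7 and 88.3, and in Ogdh at 85.8 and 87.8 against 35.0 and 37.1.

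Longer exons that fell included exons of synaptic and metabolic genes. A 156-nt exon of Grip1, a scaffold that binds AMPA-type glutamate receptors, had a PSI of 24.8 and 25.7 in knockdown libraries, against 94.3 and 93.8 in control libraries. These rest on 559 and 540 reads after knockdown and 926 and 713 in control, and the difference was -68.8 points (adjusted p = 2.02e-09, limma). A 253-nt exon of Syn2, which encodes the vesicle protein synapsin II, had a PSI of 18.9 and 22.6 after knockdown, against 89.7 and 88.2 in control (-68.2 points, adjusted p = 1.15e-08, limma). A 130-nt exon of Pfkfb1, an enzyme that makes and breaks down fructose 2,6-bisphosphate, had a PSI of 23.8 and 24.1 after knockdown, against 97.5 and 98.8 in control (-74.2 points). In all 3 the main form in control was the minor form after knockdown. A 78-nt exon of Atp8a1, a phospholipid flippase, had a PSI of 12.8 and 15.1 after knockdown, against 89.3 and 80.7 in control, with uneven reads at its junctions. A 111-nt exon of Cnga3, a cyclic nucleotide-gated channel subunit, had a PSI of 16.0 and 22.4 after knockdown, against 100 and 74.7 in control, and was not called without knockdown library A (adjusted p = 0.0561, limma).

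Exons of regulators of growth, stress and RNA decay also fell. In Mdm2, which encodes a ubiquitin ligase that restrains p53, an 85-nt exon had a PSI of 18.9 and 17.1 after knockdown, against 81.5 and 76.9 in control (-61.2 points, adjusted p = 1.01e-08, limma). A 48-nt exon of Ddit3, a stress-induced transcription factor also called CHOP, had a PSI of 37.1 and 39.5 after knockdown, against 83.3 and 84.0 in control (-45.4 points). In the annotation, neither this exon nor that of Mdm2 lies wholly within coding sequence. A 276-nt exon of Upf2, a factor of nonsense-mediated decay, had a PSI of 68.2 and 72.8 after knockdown, against 99.3 and 99.5 in control (-28.9 points). The skipped form of the Upf2 exon made up less than 1% of control transcripts. A 96-nt exon of Mcm4, a subunit of the replicative helicase, had a PSI of 73.0 and 72.7 after knockdown, against 98.6 and 98.5 in control (-25.7 points). A 127-nt exon of Slc7a11, the cystine transporter, had 51.8 and 60.2 against 96.5 and 98.3.

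Fewer exons rose. A 91-nt exon of Ogdh, a subunit of the 2-oxoglutarate dehydrogenase of the citric acid cycle, had a PSI of 85.8 and 87.8 in knockdown libraries, against 35.0 and 37.1 in control libraries (+50.7 points, adjusted p = 7.51e-09, limma). It was covered by 2641 reads or more in every library. A 107-nt exon of Slc8a1, the sodium-calcium exchanger, had a PSI of 57.8 and 71.4 after knockdown, against 14.4 and 16.1 in control (+49.4 points, adjusted p = 1.01e-05, limma). A 111-nt exon of the histone deacetylase Hdac7 had a PSI of 66.4 and 74.8 after knockdown, against 19.7 and 29.0 in control, and was not called without control library A (adjusted p = 0.0519, limma). Both knockdown libraries were above both controls in each. A 38-nt exon of Mvk, the mevalonate kinase of sterol synthesis, had 49.4 and 54.6 after knockdown, against 21.5 and 21.3 in control (+30.6 points). Exons of Als2cl, at 90.0 and 84.1 after knockdown against 32.1 and 38.7 in control, and of Ankrd9, at 69.7 and 82.5 against 25.3 and 29.4, were also called but had uneven junction reads.

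Some genes hold a pair of exons of equal length of which a transcript uses one, and in several the balance moved. Dnm2, the dynamin that cuts endocytic vesicles from the membrane in most tissues, has 2 such exons of 139 nt. The first had a PSI of 95.7 and 93.3 in knockdown libraries, against 71.9 in both control libraries (+22.5 points, adjusted p = 6.94e-05, limma). The second had a PSI of 7.45 and 8.47 after knockdown, against 30.7 and 31.3 in control (-23.0 points). Dnm1, the neuronal dynamin, moved the same way: its first 139-nt exon stood at 96.4 and 98.4 after knockdown against 87.7 and 82.8 in control (+12.2 points, adjusted p = 0.0213, limma), and the other at 1.75 and 1.80 against 13.9 and 16.3 (-13.3 points). The first of these was not called without knockdown library A, knockdown library B or control library B (adjusted p = 0.0835, 0.118 and 0.0838, limma). Tpm2, an actin-binding tropomyosin, has 2 such exons of 76 nt. The first had a PSI of 23.2 and 23.3 after knockdown, against 3.59 and 2.03 in control (+20.4 points, adjusted p = 4.26e-05, limma). The second had 76.2 and 81.9 after knockdown, against 98.1 and 98.6 in control (-19.3 points). In all 3 genes the first exon of the pair was used more and the second less after knockdown, first meaning nearer the 5′ end. The sequences are shown to let the exons of a pair be compared: those of Dnm2 share 95 of 139 bases (68.3%) and those of Tpm2 share 41 of 76 (53.9%). They lie at chr9:21478899-21479037 and chr9:21480407-21480545 for Dnm2, plus strand, and at chr4:43519003-43519078 and chr4:43518644-43518719 for Tpm2, minus strand, in GRCm38:
Dnm2 first: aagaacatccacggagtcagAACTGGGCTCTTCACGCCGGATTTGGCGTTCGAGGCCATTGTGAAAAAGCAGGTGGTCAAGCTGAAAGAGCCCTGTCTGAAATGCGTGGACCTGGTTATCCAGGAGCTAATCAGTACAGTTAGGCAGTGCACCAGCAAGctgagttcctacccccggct
Dnm2 second: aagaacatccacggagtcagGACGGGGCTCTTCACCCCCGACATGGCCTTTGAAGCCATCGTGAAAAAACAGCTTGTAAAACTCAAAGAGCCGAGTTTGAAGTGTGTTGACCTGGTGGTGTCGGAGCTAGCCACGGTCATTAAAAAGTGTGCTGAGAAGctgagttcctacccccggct
Tpm2 first: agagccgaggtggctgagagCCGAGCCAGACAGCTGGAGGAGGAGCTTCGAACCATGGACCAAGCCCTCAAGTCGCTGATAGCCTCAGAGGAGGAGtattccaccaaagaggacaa
Tpm2 second: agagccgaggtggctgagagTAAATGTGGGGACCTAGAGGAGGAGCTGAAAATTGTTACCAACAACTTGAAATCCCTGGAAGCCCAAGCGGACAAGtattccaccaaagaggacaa

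Among exons over 27 nt, those that fell were shorter and lay between longer introns than those not called. They had a median length of 98 nt and lay between introns of 3437 nt upstream and 3274 nt downstream at the median. Exons that were not called had a median length of 111 nt and introns of 2343 and 2553 nt. Exons that rose were 116 nt long at the median and lay between introns of 735 and 879 nt, the shortest of the 3 sets. Among microexons, those that fell had a longer upstream intron at the median, 2006.5 nt against 1049 nt for those not called, and a shorter downstream one, 1348 nt against 1689 nt. Over all exons, the share that fell was 45.5% for exons of 1 to 9 nt, 46.2% for 10 to 15 nt, 34.8% for 16 to 27 nt, 33.0% for 28 to 50 nt, 29.9% for 51 to 100 nt, 24.8% for 101 to 150 nt, 20.1% for 151 to 300 nt and 22.4% above 300 nt. It also varied with the control level: 3.17% of longer exons under a control PSI of 20 fell, against 30.1% of those above 80. The 10-point threshold limits what a low exon can lose. At the other end, only exons with a mean PSI of 5 to 95 over the 4 libraries were tested. An exon near full inclusion in control was thus tested only if it fell, which raises the share above 80. These are descriptions, with no test of length or intron size.

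**Figure D3:**
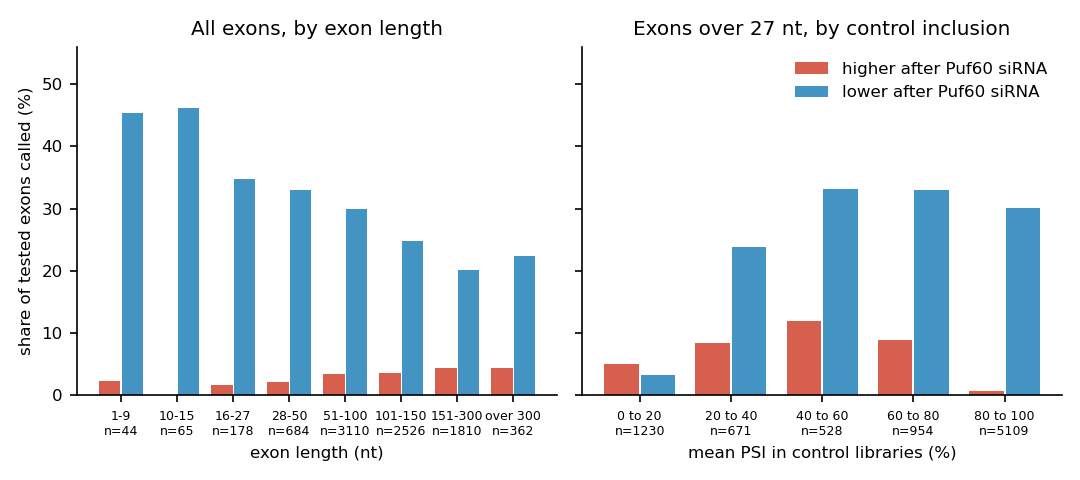
Percentage of tested exons that fell or rose in pEx5 knockdown libraries, by exon length in nt and by mean PSI of the control libraries. The share that fell is 46.2% at 10 to 15 nt and 20.1% at 151 to 300 nt, and 3.17% at a control PSI under 20.

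Introns that were retained more included one of 448 nt in Pnpla6, a phospholipase of the endoplasmic reticulum, with a PSI of 83.3 and 73.4 in knockdown libraries, against 22.1 and 20.0 in control libraries (+57.3 points, adjusted p = 2.38e-05, limma). A 4678-nt intron of Rcbtb1 had a PSI of 81.0 and 78.1 after knockdown, against 27.5 and 30.02 in control (+50.8 points, adjusted p = 1.08e-07, limma). A 495-nt intron of Atat1, which acetylates alpha-tubulin, had 48.6 and 72.4 after knockdown, against 11.8 and 14.6 in control. The knockdown libraries were higher than both controls in each, with a wide gap between the replicates of Atat1. Its call was lost without control library A (adjusted p = 0.0757, limma) or knockdown library B (0.0931). A 1644-nt intron of Ache, acetylcholinesterase, at 54.7 and 59.1 after knockdown against 4.17 and 14.1 in control, and a 2776-nt intron of the centrosomal Cep70, at 60.8 and 74.6 against 14.1 and 22.1, had unequal reads at their ends. Introns that fell included one of 96 nt in Lrrc45, a linker of centrosomes, at 25.2 and 24.6 after knockdown against 70.5 and 61.7 in control (-41.2 points, adjusted p = 0.000347, limma), and one of 1960 nt in 2610318N02Rik, at 22.9 and 24.2 against 61.2 and 78.7. Lower introns of Ccdc136, Farp2 and Gprasp1 were also called but had uneven reads at their ends. The call was lost for Ccdc136 without control library B (adjusted p = 0.0892, limma), and for Farp2 without control library A (0.0917), knockdown library A (0.0871) or knockdown library B (0.0564). The introns that rose had a median length of 1123 nt, those that fell 529 nt and those not called 682 nt.

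The intron counts moved with the libraries used. Higher introns numbered 245 without control library A, and lower introns 88 without knockdown library B, 94 without knockdown library A and 101 without control library B. With only events of balanced junction reads, 211 were higher and 85 lower, an alternative added after the values had been seen.

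At alternative 3′ splice sites, 2 or more AGs compete, and PSI counts transcripts cut at the given one. Added lengths are relative to the site that makes the exon shortest, which was left out of the test. Where more than 2 sites compete, a switch between them can count both as a rise and as a fall. A site that adds 27 nt in Rnf111, the ubiquitin ligase Arkadia, had a PSI of 67.5 and 63.8 in knockdown libraries, against 10.3 and 1.98 in control libraries (+59.5 points, adjusted p = 4.67e-06, limma). Sept8, a septin of the cytoskeleton, changed between 2 sites: the one that adds 445 nt had 88.9 and 87.6 after knockdown against 32.1 and 38.6 in control, and the one that adds 265 nt had 4.20 and 3.14 against 64.6 and 60.4. One form thus stood where the other had been, with differences of +52.9 and -58.9 points. In Ifi27l1 a site that adds 60 nt had a PSI of 28.0 and 25.4 after knockdown, against 83.5 and 87.3 in control (-58.7 points, adjusted p = 1.32e-08, limma). In Prepl, a serine hydrolase, a site that adds 436 nt had 31.1 and 32.8 after knockdown, against 83.7 and 82.1 in control (-51.0 points). In Pdlim5, a PDZ and LIM domain protein of actin filaments, one that adds 327 nt had 38.6 and 34.8 against 84.2 and 81.8. Sites of Cep70 and of the kinetochore protein Cenpt rose by 44.6 and 43.0 points. Sites of the ribosomal protein gene Rpl39 were called in both directions, and are uncertain since its processed copies can share reads. Knockdown and control libraries did not overlap in any of these.

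Tial1 encodes TIAR, an RNA-binding protein that itself acts in splicing. Its upstream 3′ splice site, which adds 51 nt, had a PSI of 67.4 and 69.1 in knockdown libraries, against 26.7 and 30.8 in control libraries (+39.5 points, adjusted p = 2.09e-05, limma). The sequence is shown because the added 51 nt, in capitals, form the tract that precedes the downstream site. When that downstream AG, at the end of the capitals, is used, the capitals are removed with the intron. The last 20 of the capital letters hold 13 C or T, 11 of them T. The longer exon lies at chr7:128448621-128448770 of GRCm38 on the minus strand:
Tial1: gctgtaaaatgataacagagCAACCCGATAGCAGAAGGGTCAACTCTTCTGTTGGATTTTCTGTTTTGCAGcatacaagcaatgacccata

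The share of 3′ sites that changed varied with their distance from the site of the shortest form. Of 959 sites 1 to 3 nt apart, 5 rose (0.521%) and 12 fell (1.25%), and of 1300 sites 4 to 50 nt apart 64 rose (4.92%) and 81 fell (6.23%). Of 755 sites 51 to 200 nt apart, 92 rose (12.2%) and 34 fell (4.50%). Of 76 sites more than 200 nt apart, 8 rose (10.5%) and 10 fell (13.2%), so that rises outnumbered falls at 51 to 200 nt alone. Alternative 5′ splice sites changed less often, though some moved far. In Dctn2, a subunit of the dynein activator dynactin, a site that adds 3 nt had a PSI of 83.3 and 83.8 in knockdown libraries, against 8.57 and 14.4 in control libraries (+72.1 points, adjusted p = 1.67e-08, limma). In Csnk2a1, a catalytic subunit of casein kinase 2, a site that adds 41 nt had 11.7 and 10.7 after knockdown, against 50.2 and 43.1 in control (-35.4 points, adjusted p = 4.05e-06, limma). In Cbx3, a heterochromatin protein, a site that adds 5 nt had 74.0 and 71.7 after knockdown, against 35.1 and 30.1 in control (+40.2 points). In Vkorc1l1 one that adds 138 nt had 71.3 and 76.4 against 25.1 and 26.6. In Hnrnph1, an RNA-binding regulator of splicing, the form longer by 39 nt had 36.3 and 35.5 after knockdown, against 11.5 and 11.4 in control, and the form longer by 9 nt had 63.3 and 63.9 against 87.9 and 87.7. Both libraries of a group lay within 1 point of each other in Hnrnph1. The 67 higher and 32 lower 5′ sites became 41 higher without control library A or without knockdown library A, and 17 lower without control library A and 21 without knockdown library B.

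Messenger RNA levels moved in both directions. On junction reads, 2054 of 10363 genes rose (19.8%) and 2006 fell (19.4%) at an adjusted p under 0.05 (limma), with a median log2 change of 0.012 over all genes. The authors' deposited table, from edgeR, calls 2819 of 18600 genes higher (15.2%) and 3259 lower (17.5%), and at a fold of 2 or more 635 higher (3.41%) and 211 lower (1.13%). Of 3660 genes called on junction reads and found in the authors' deposited table, 3616 had the same sign there (98.8%). A gene's junction reads can move with its splicing as well as with its level.

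The largest rise among genes at 5 RPKM or more in either group and called in both tables was that of Myl9, a regulatory light chain of non-muscle and smooth muscle myosin. It had 13.3 and 17.1 CPM in knockdown libraries, against 1.52 and 2.05 CPM in control libraries (log2 change 3.05 ± 0.131 SE, adjusted p = 3.43e-12, limma). Ptgr1, a reductase of prostaglandins and reactive aldehydes, had 56.9 and 60.2 CPM after knockdown, against 18.1 and 18.5 CPM in control (1.68 ± 0.092 SE, adjusted p = 8.33e-11, limma). Cpne1, a calcium-dependent membrane-binding copine, had 106.1 and 101.9 CPM after knockdown, against 34.6 and 32.6 CPM in control (1.63 ± 0.077 SE). All 3 were higher in both knockdown libraries than in both controls, but the share of all genes without overlap was not counted. Among the same genes, the next largest rises in the authors' deposited table were S100a1 at 1.72 on the log2 scale, Gstm1 at 1.71, Vsig1 at 1.65, Ccnb1ip1 at 1.44, Nmi at 1.43, Opn3 at 1.39 and Dbx2 at 1.38. S100a1 is a calcium-binding protein and Opn3 an opsin. Gstm1 is a glutathione transferase whose close paralogs can share its reads, so that its level is uncertain.

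Among the genes that fell were genes of neuronal vesicles and of RNA processing. Heatr3, which takes part in ribosome assembly, had 50.2 and 47.9 CPM in knockdown libraries, against 188.4 and 192.3 CPM in control libraries (log2 change -1.95 ± 0.058 SE, adjusted p = 9.59e-15, limma). Vamp2, the vesicle SNARE synaptobrevin, had 4.09 and 3.79 CPM after knockdown, against 19.3 and 17.0 CPM in control (-2.18 ± 0.181 SE). Sv2a, a glycoprotein of synaptic vesicles, had 9.35 and 9.41 CPM after knockdown, against 33.98 and 31.3 CPM in control (-1.79 ± 0.096 SE). Ptbp2, the neural polypyrimidine tract-binding protein, had 30.5 and 32.1 CPM after knockdown, against 110.5 and 128.3 CPM in control (-1.93 ± 0.075 SE, adjusted p = 6.2e-13, limma). Agtpbp1, an enzyme that trims glutamates from tubulin, had 27.2 and 27.3 CPM after knockdown, against 97.2 and 100.3 CPM in control (-1.86 ± 0.065 SE). None of the 5 genes had overlapping groups, which adds little beyond their calls, since the share without overlap over all genes was not counted. In the authors' deposited table Oip5 stood at -1.88, Pigp at -1.57, Tmem175 at -1.44 and Tmem65 at -1.43. Adnp stood at -1.91 there and at -0.84 on junction reads.

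**Figure D4:**
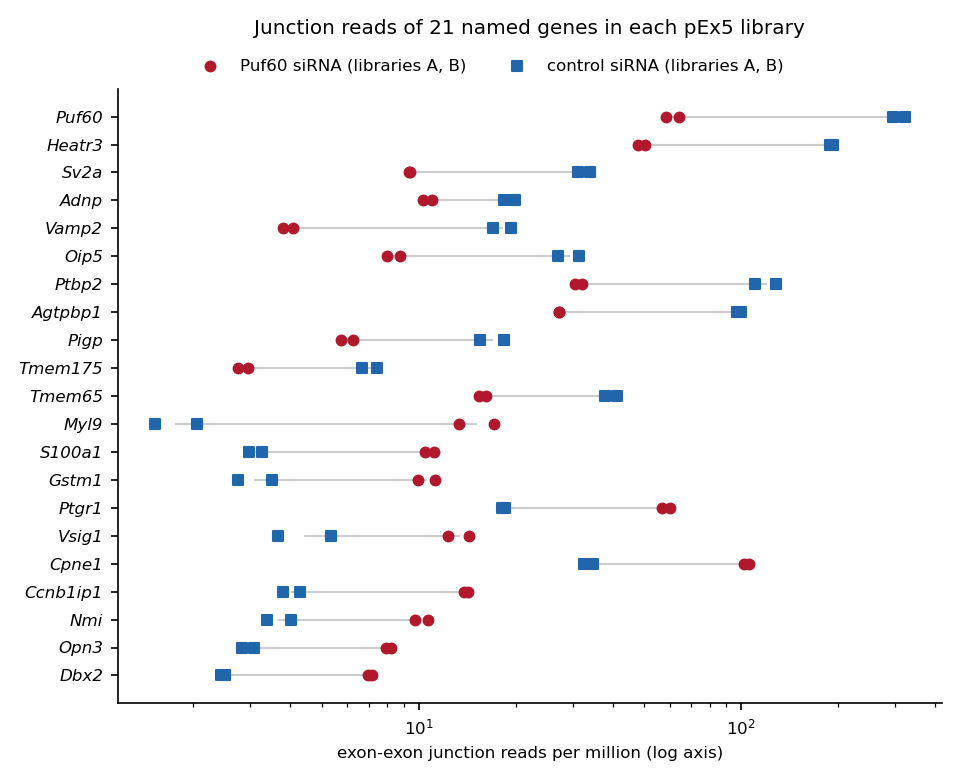
CPM of exon-exon junction reads (horizontal log axis) in each pEx5 library for Puf60, the 10 genes with the largest falls and the 10 with the largest rises in the authors' deposited table among genes at 5 RPKM or more and called in both tables, one per line; circles are knockdown libraries, squares control libraries, and a grey line joins the group means. Puf60 sits at 58.3 and 64.4 CPM after knockdown, against 321.2 and 295.7 CPM in control, and Myl9 at 13.3 and 17.1 against 1.52 and 2.05.

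Several of the genes that fell most also had a large splicing change, in an exon whose length is not a multiple of 3 or in an intron. Ptbp2 has a 34-nt exon, known as a switch in neurons since its skipping leads the transcript to nonsense-mediated decay. Its PSI was 42.9 and 37.0 in knockdown libraries, against 86.0 and 88.2 in control libraries (-47.1 points, adjusted p = 6.51e-07, limma). A 38-nt exon of Agtpbp1 had a PSI of 40.1 and 26.1 after knockdown, against 84.6 and 86.3 in control (-52.3 points, adjusted p = 1.67e-05, limma). An 89-nt exon of Heatr3 had 81.5 and 72.0 after knockdown, against 99.6 and 98.4 in control. The knockdown values of all 3 exons were below both controls. A 68-nt exon of Tmem65, a mitochondrial membrane protein, had 69.8 and 65.1 after knockdown, against 99.4 in both controls (-31.9 points). The exons of Ptbp2 and Agtpbp1 are printed because skipping either one shifts the reading frame between the flanking coding exons, with the exon in capitals. They lie in GRCm38 at chr3:119724612-119724645 for Ptbp2 and chr13:59517653-59517690 for Agtpbp1, both on the minus strand:
Ptbp2: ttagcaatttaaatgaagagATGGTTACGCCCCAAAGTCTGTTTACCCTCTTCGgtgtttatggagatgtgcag
Agtpbp1: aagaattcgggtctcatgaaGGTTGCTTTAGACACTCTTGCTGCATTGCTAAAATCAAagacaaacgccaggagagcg

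In Vamp2 and Sv2a introns were retained more. A 622-nt intron of Vamp2 had a PSI of 52.0 and 50.8 in knockdown libraries, against 16.3 and 14.6 in control libraries (adjusted p = 1.87e-05, limma). A 384-nt intron of Sv2a had 33.3 and 51.2 after knockdown, against 4.23 and 8.42 in control, from 40 and 31 reads after knockdown and 148 and 103 in control. Both introns were higher in both knockdown libraries. Other genes had a large exon loss with a smaller fall in level. Snap91, a clathrin adaptor of synapses, had an 84-nt exon at 16.4 and 20.5 after knockdown against 69.5 and 65.4 in control, and stood at -0.76 on the log2 scale in the authors' deposited table. Ttll5, a tubulin glutamylase, had an 83-nt exon at 45.5 and 31.2 after knockdown against 97.5 and 98.5 in control, and stood at -0.87 in the authors' deposited table. Nlgn2, the neuroligin of inhibitory synapses, had a 51-nt exon at 38.5 and 45.1 after knockdown against 95.7 and 91.4 in control, and stood at -0.67 in the authors' deposited table. Slit2, a guidance cue of axons, had a 72-nt exon at 46.8 and 47.0 after knockdown against 98.7 and 100 in control, and stood at -0.70 in the authors' deposited table.

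Across genes, the authors' deposited table calls 17.5% of all genes lower and 28.1% of those with a tested exon and no changed event, 625 of 2227. Where an exon of a length not divisible by 3 fell, 408 of 777 genes were lower in the authors' deposited table (52.5%), and 14.7% by 1.5-fold or more. Where the exon's length was a multiple of 3, 220 of 594 were lower there (37.0%), and 5.05% by 1.5-fold or more. Genes with a more retained intron were lower in 175 of 324 cases in the authors' deposited table (54.0%), against 881 of 2939 where introns were tested and not called (29.98%). With an intron retained less, 26 of 114 were lower (22.8%), and with an exon that rose 72 of 252 (28.6%). These are shares with no test, and genes with more reads are more likely to pass both thresholds.

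Lists of genes of known function were read against the background of 19.8% of genes higher and 19.4% lower. Lists of stress and interferon responses leaned upward. Of 19 measured genes of the unfolded protein response, which is set off in the endoplasmic reticulum, 14 rose and 0 fell, with a median log2 change of 0.24. Among them Edem1 was at 0.48, Sel1l at 0.43 and Manf at 0.43, while Dnajc3, at 0.41, stood at -0.04 in the authors' deposited table. Fewer of the 19 were called higher when control library A or either knockdown library was left out. Of 25 genes of the integrated stress response, 16 rose and 2 fell (median 0.26), and Nupr1, a small stress-induced chromatin protein, had 72.8 and 74.9 CPM in knockdown libraries, against 39.6 and 42.5 CPM in control libraries. Of 19 targets of the oxidative stress factor NRF2, 10 rose and 0 fell (median 0.21, or 0.31 without knockdown library A). Hmox1, the heme oxygenase of that list, had 328.5 and 338.4 CPM after knockdown, against 161.8 and 154.3 CPM in control. The changes of these lists were modest, since most of their medians lay near 0.25 on the log2 scale.

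Of 10 interferon-stimulated genes 5 rose and 0 fell (median 0.56, or 0.34 without control library A), with Isg15 and Mx2 both at 0.76 and Nmi at 1.45. Of 14 genes of contraction and of the YAP regulator 8 rose and 2 fell (median 0.30), with Acta2, the smooth muscle actin, at 2.03 and Flna, which cross-links actin, at 0.52. Targets of p53 showed little of this, with 4 of 17 higher and 1 lower (median 0.05, or 0.10 without control library B and 0.08 without control library A), Gdf15 being at 0.66 and the cell-cycle inhibitor Cdkn1a at 0.43. Summed markers of fibroblasts, another source of contractile genes, were 1.17 RPKM after knockdown against 0.74 RPKM in control, and their part in these values was not tested.

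Lists of neuronal and of proliferation genes held more lower than higher members. Of 23 synaptic vesicle genes 11 fell and 4 rose (median -0.24). Beside Vamp2 and Sv2a they included the SNARE recycling factor Napb at -1.10 and the SNARE Snap25 at -1.08. Among the 4 that rose, the synapsin gene Syn2 had 220.6 and 223.1 CPM in knockdown libraries, against 120.4 and 105.7 CPM in control libraries (log2 change 0.97), and Syt4, Syn1 and Syt1 were at 0.27, 0.26 and 0.22. The number of higher genes in this list was 1 without knockdown library A. A 47-nt exon of Napb was also skipped more, at 65.0 and 69.0 after knockdown against 94.0 and 91.4 in control, as was a 49-nt exon of Snap25, at 87.7 and 86.3 against 98.2 and 98.9. Of 13 genes of the noradrenergic lineage 4 fell and 1 rose (median -0.18, or -0.09 without control library A and -0.28 without control library B): Chga, a granule protein, at -0.79 was among the lower and Gata3 at 0.86 was higher. A 47-nt exon of Chga had 77.5 and 77.9 after knockdown, against 99.6 and 99.5 in control (-21.9 points).

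Of 33 S-phase genes 17 fell and 0 rose (median -0.19). Among them were the transcription factor E2f1 at -0.94, the helicase subunit Mcm6 at -0.70 and the replication factor Cdc45 at -0.56. Of 24 genes of the G2 and M phases 9 fell and 1 rose (median -0.10, or -0.07 without control library B). Fewer of the 24 were called lower when control library B or either knockdown library was left out. Of 19 genes of sterol synthesis 14 fell and 1 rose (median -0.30), with Insig1, which holds the sterol sensor in the endoplasmic reticulum, at -0.92 and the reductase Tm7sf2 at -0.81. Of 25 genes of the centrosome and cilium 11 fell and 5 rose (median -0.17). The transport proteins Ift88, at -0.92, and Ift20, at -0.80, were among those that fell, with Pcm1 of the centriolar satellites at -0.71. The number of higher genes in this list was 3 without control library A, knockdown library A or knockdown library B.

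Other splicing factors moved too. Of 14 hnRNP genes 10 fell and 1 rose (median -0.24, or -0.18 without control library B), with Hnrnpc at -0.77, Hnrnph1 at -0.59 and Hnrnpa2b1 at -0.57. Fewer of the 14 were called lower when control library B or either knockdown library was left out. The gene that rose, Hnrnph2 at 0.43, stood at -0.04 in the authors' deposited table. A 73-nt exon of Hnrnpa2b1 had a PSI of 4.53 and 4.82 after knockdown, against 27.2 and 30.7 in control (-24.3 points). Of 16 neural regulators of splicing 8 fell and 0 rose (median -0.21), with the RNA-binding Elavl2 at -0.91, Celf5 at -0.73 and Elavl4 at -0.59 beside Ptbp2. With junction reads scaled to the library total, the same list had 7 lower and 1 higher. Of 10 SR genes 5 fell and 2 rose (median -0.21), or 3 lower when control library A, control library B or knockdown library B was left out.

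Lists of factors that work beside Puf60 were small, and their counts lay near the background of 19.8% higher and 19.4% lower. Of 10 relatives of Puf60 and U2AF genes 2 rose and 3 fell (median 0.02): Sf1, the branch point-binding protein, at -0.53 and U2af2, which encodes U2AF65, at -0.28 were lower, and Sugp1 at 0.38 was higher. Without control library A, 1 was higher, and the median, close to 0, was -0.01. A 76-nt exon of Sf1 had a PSI of 74.7 and 77.0 after knockdown, against 91.8 and 92.1 in control (-16.1 points). Of 12 genes of the U2 particle 3 rose and 1 fell (median 0.05, or 0.09 without control library B), and none of their 10 tested events was called by limma. Ddx46, the helicase that remodels U2 at the branch point, had 591.3 and 597.5 CPM in knockdown libraries, against 324.6 and 330.5 CPM in control libraries (log2 change 0.86). Of 11 genes of nonsense-mediated decay 3 rose and 2 fell, and of 18 dynein and dynactin genes 2 rose and 5 fell. These small lists were not tested against the background. Without control library A 0 of these 18 were higher, without control library B 2 were lower, and without knockdown library B 1 was higher and 1 lower. In endocytosis genes 39 of 115 tested events changed (33.9%), against 16.3% over all events, 12 higher and 27 lower, while 7 of 24 genes fell in level and 2 rose. In genes of chromatin and transcription 27 of 112 tested events changed (24.1%), 11 higher and 16 lower. The share over all events differs by kind: 40.4% of microexons, 29.8% of longer exons and 7.28% of introns. For alternative 3′ and 5′ sites it was 9.9% and 4.26%. The mix of kinds in both lists was not taken into account. The changed events lay in 14 of 21 endocytosis genes and in 16 of 21 chromatin and transcription genes with a tested event. Over all genes with a tested event this share was 32.5%. Events of the same gene are not independent, which was not taken into account either.

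**Figure D5:**
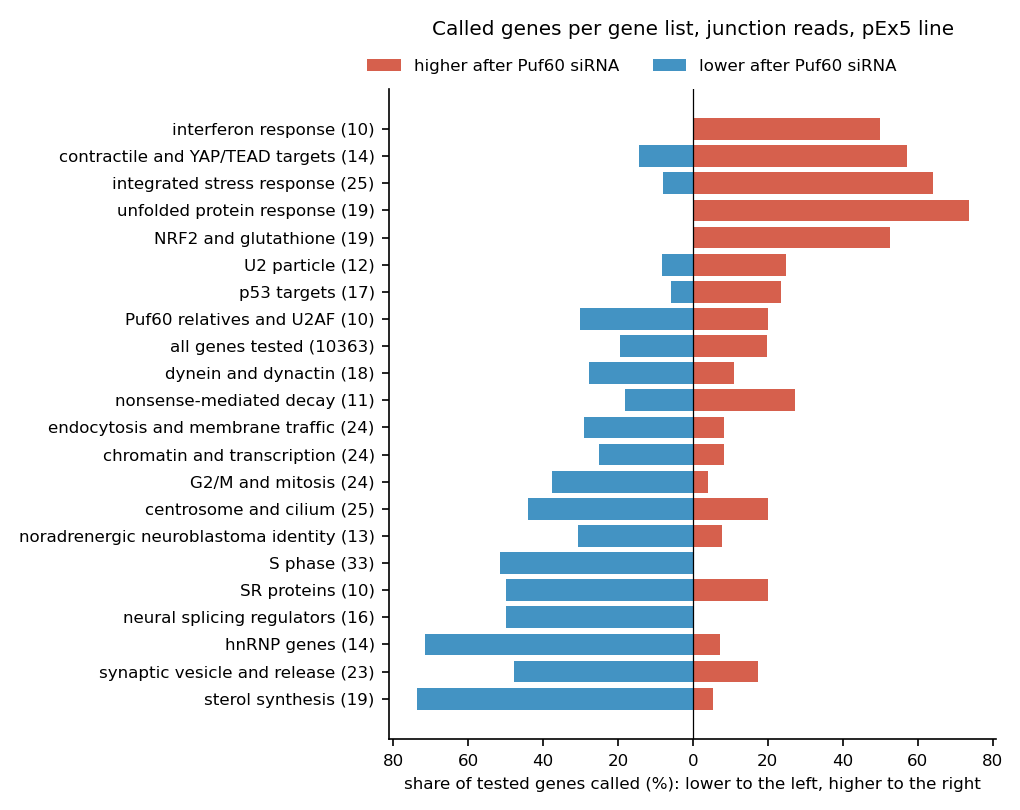
Share of the measured genes of each list that rose (right) or fell (left) in pEx5 knockdown libraries on junction reads, with all genes for comparison (19.8% higher, 19.4% lower). The unfolded protein response had 14 of 19 genes higher and sterol synthesis 14 of 19 lower.

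The mEx5 line received the same siRNAs without doxycycline, and its own controls allow the change to be set beside that in pEx5. No event of 22431 differed in its change between the lines at an adjusted p under 0.05 (0.0%; limma), while 1248 did at an unadjusted p under 0.05. Of the 3649 events that changed in pEx5, 3557 had the same sign in mEx5 (97.5%) and 2245 were called there as well. Over all tested events, the sign was the same in both lines for 239 of 287 microexons and 7042 of 8492 longer exons. It was the same for 5784 of 8237 introns, 2033 of 3090 alternative 3′ sites and 1405 of 2325 alternative 5′ sites. The number of all tested events called in mEx5 was not counted. The median of the mEx5 change relative to the pEx5 change was 0.844 over the called events, which were chosen on the pEx5 values. Of 10363 genes, 3 differed in their change between the lines (0.0289%), against 556 at an unadjusted p under 0.05. Failing this threshold is no evidence of equal responses in the lines.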

How the data were processed

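RNA from 12 N2A libraries was poly(A)-selected and prepared with a stranded kit, per the labels. Per the submitters' processing notes, tools were Salmon 0.14.1 and edgeR with build mm10. The authors deposited an event table with PSI as a percent, quality strings holding the reads behind each PSI as scores, and a gene table with the authors' group RPKM, log2 fold changes and p-values adjusted as FDR. The event table's coordinates do not match mm10, and its assembly is not given in the sources used here, so they are not printed.

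From these, inclusion and exclusion reads were read for each library. PSI recomputed from reads lay within 0.02 points of the deposited percent in 98.89% of cases. Events with 10 or more reads in each of 12 libraries and a mean PSI of 5 to 95 over the 4 pEx5 libraries were tested with limma 3.58.1 (R 4.3.3) on logit PSI, with a pseudocount of 0.5, weights from reads with a variance floor of 0.01, and 1 coefficient per group over 12 libraries. Gene levels were exon-exon junction reads summed per gene (mean of 20 or more), scaled by the median of ratios, as log2 CPM with a prior count of 2, tested with limma with trend. P-values were adjusted over all events or genes (Benjamini-Hochberg). PSI intervals are exact Clopper-Pearson at 95%. Data were handled in Python 3.11.15 with pandas 2.3.3 and scipy 1.17.1. Scripts were tested on simulated data.

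The text names, for each kind of event, the 5 with the largest differences in each direction among called events with 20 or more reads, the 10 genes with the largest authors' changes in each direction among those at 5 RPKM or more and called in both tables, genes with both changes, and members of lists. Members and lists were chosen with earlier results of these data known. Exon sequences come from GENCODE transcripts on GRCm38, where exon and intron lengths matched 1 annotated exon, as for 94 of 120 named exons. Libraries were grouped by their titles. Same letters in both groups did not pair libraries: deviations correlated at -0.040 over genes and -0.006 over events. Some items that these rules name are not reported here.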

Additional observations from a re-analysis of the deposited data

Results flagged for a closer look

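In 3 genes the knockdown changed the level differently in pEx5 and mEx5, by limma's test of the difference between the lines' log2 changes over all genes. Cth, the cystathionine gamma-lyase of cysteine synthesis, had 106.6 and 106.6 CPM in pEx5 knockdown libraries, against 93.5 and 99.9 CPM in pEx5 control libraries. In mEx5 it had 111.2 and 114.2 CPM after knockdown, against 58.4 and 60.8 CPM in control. The pEx5 change minus the mEx5 change was -0.7773 (adjusted p = 0.000282). Htr3a, a subunit of the serotonin-gated channel, had 87.3 and 87.8 CPM in pEx5 after knockdown against 79.3 and 84.6 CPM in control, and 38.01 and 40.4 CPM in mEx5 after knockdown against 22.6 and 24.95 CPM in control (difference -0.625, adjusted p = 0.0211). Capn6, a calpain family member, had 25.01 and 24.5 CPM in pEx5 after knockdown against 31.5 and 32.0 CPM in control, and 46.7 and 44.5 CPM in mEx5 after knockdown against 35.5 and 38.2 CPM in control (difference -0.6648, adjusted p = 0.0383). The difference of Cth passed the threshold in every alternative run, with an adjusted p of 0.00815 at most. That of Htr3a was lost when any pEx5 library was left out (adjusted p from 0.0514 to 0.226), without mEx5 control library A (0.306) and without mEx5 knockdown library B (0.0602). That of Capn6 was lost when any pEx5 library was left out (0.052 to 0.268), when any mEx5 control or knockdown library was left out (0.0602 to 0.459) and with total scaling (0.0816). The control levels of Cth and Htr3a were lower in mEx5 than in pEx5. The lines also differ in their transgene and their derivation, which cannot be told apart here.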

How the results depend on the processing

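In no alternative did a named event or gene reverse. Of 22431 tested events, 3649 changed. The count was 2005 with events of nearly constant PSI kept in, of 222055 tested, and 2341 with a threshold of 15 points. It was 2720 without read weights, 3500 with a variance floor of 0.05, 3718 with a pseudocount of 1, 3501 with 20 reads per library, 3463 in a fit of the 4 pEx5 libraries alone, and 2753 of 16911 with balanced junction reads, the last chosen after seeing the data. Leaving out 1 library at a time gave 2777 to 3641 events and 2927 to 4250 genes, against 4060. Gene counts under the other settings ran from 3875 to 4638. Scaling to total junction reads gave 4143 genes, 2391 higher and 1752 lower, and moved the median of all genes to 0.045 from 0.012 on the log2 scale. Without read weights the alternative 5′ sites were 30 higher and 15 lower and higher exons 196. The genes that differed between lines numbered 1 to 3 with a library left out and 2 with total scaling. Puf60 stayed between -2.40 and -2.26 on the log2 scale and exon 5 between -17.6 and -14.2 points. With the replicate letter as a block, 3559 events and 4055 genes changed; the letters do not pair the libraries. Of 73 named events, 18 lost the call when some library was left out, and of 29 named genes 0; among events and genes of the lists, 59 of 144 and 58 of 190 did, the cause of which was not tested. Events with few reads and changes near 10 points are limited by depth.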

Other observations

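Some genes held many changed events, named here after their values were seen. In 2610020H08Rik 10 of 18 tested events fell and none rose by the limma test. In Zfp451, a SUMO ligase, 8 of 11 tested events fell. In Snap91 9 of 14 changed, 2 higher and 7 lower. In Ccdc136 the direction was the other one, with 9 of 16 tested events higher and 2 lower. Of the 2252 genes with a changed event, 1456 had 1, 796 had 2 or more and 67 had 5 or more.

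The authors' deposited table also holds their own call for exons and introns. Of 3244 events called here and listed there, 3143 carry that call (96.9%). Of 5171 events with the authors' call that were tested here, 60.8% were called. The other 2028 had a median absolute difference of 8.05 points.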
